A study of Mus musculus with 4 samples.

Results

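The genes described here are 40 genes of mitosis, taken by name from the 47885 rows of the deposited count table: the kinases that start and order cell division, the spindle, kinetochore, checkpoint and cytokinesis genes, and genes of condensed chromosomes. All 40 names matched 1 row each, and all 40 were among the 15563 genes that passed the filter on low counts. They were measured by RNA-seq in 4 single C57BL/6 mouse embryos at embryonic day 5.5, 2 labelled Mettl14+/+ (WT) and 2 labelled Mettl14-/- (KO), in a study that asked what loss of Mettl14 does before mutants can be told from littermates by shape. Mettl14 encodes a subunit of the complex that writes N6-methyladenosine on RNA. Each library held the amplified polyadenylated RNA of 1 whole embryo. Genotype was assigned afterwards from Mettl14 qPCR on the same cDNA, per the labels' protocols. The controls are thus embryos in which Mettl14 mRNA was found, and heterozygous embryos may be among them. No other allele or agent is named in the labels, nor is the deleted stretch of Mettl14.

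Mitosis begins when the kinase CDK1, bound to a B-type cyclin, drives the cell out of G2, and ends when the anaphase-promoting complex (APC/C) marks cyclin B and securin for destruction. Between these points the spindle attaches to kinetochores, and the spindle checkpoint holds back the APC/C activator CDC20 until every chromosome is attached. Transcripts of many of these genes peak together in G2 and M, so that in a tissue their levels follow the share of dividing cells. The mouse epiblast after implantation is known for very fast cell cycles.

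Total counts ran from 16108062 in WT replicate 1 to 28698541 in KO replicate 2. Mettl14, the gene by which the embryos were classed, stood at 34.0 and 31.6 CPM (counts scaled to a common library size after TMM) in WT and at 4.63 and 8.04 CPM in KO. On the first principal component of all genes tested, with 51.6% of their variance, WT replicates 1 and 2 lay at -60.7 and -15.8. KO replicates 1 and 2 lay at 0.376 and 76.1. Epiblast markers were present in every embryo. The 8 of the list summed to 2443 and 2279 CPM in WT and to 1777 and 2773 CPM in KO, with 5 higher and 3 lower in KO. Otx2 had 101 and 110 CPM in WT and 46.5 and 61.1 CPM in KO. Dnmt3b had 1210 and 870.5 CPM in WT and 559 and 705 CPM in KO. Sox2, Nanog and Pou3f1 were higher in both KO embryos, as were 19.4% of all genes tested. The groups overlapped for Pou5f1, Fgf5 and Utf1. The list of 10 visceral endoderm markers summed to 649 and 1753 CPM in WT and to 252 and 327 CPM in KO, with 9 of 10 lower in KO and none at 0. Apoa1 made up most of each sum, at 441 and 1108 CPM in WT and 173 and 194 CPM in KO. The groups overlapped for Afp, Gata4 and Sox17. For trophoblast giant cells, which copy their DNA without dividing, and the ectoplacental cone, the 7 markers summed to 374 and 575 CPM in WT and to 1833 and 1039 CPM in KO. All 5 tested markers of that list were higher in KO, and Prl2c2 and Tpbpa had 0 counts in every embryo. Hand1, at 151 and 262 CPM, and Phlda2, at 198 and 284 CPM, made up most of the WT sums. Prl3d1 had 0 and 0.695 CPM in WT and 322 and 46.5 CPM in KO. Plac1 had 6.78 and 2.14 CPM in WT and 287 and 75.85 CPM in KO. The 2 KO embryos were thus far apart for both. The 8 extraembryonic ectoderm markers summed to 746 and 940 CPM in WT and to 1550 and 1056 CPM in KO, with 6 higher and 2 lower in KO. Krt8 made up much of that difference, at 135.5 and 248 CPM in WT and 516 and 394 CPM in KO. Bmp4 and Gata3 were also higher in both KO embryos, and the groups overlapped for Cdx2, Elf5, Eomes, Esrrb and Tfap2c. Of 7 maternal decidua markers, 5 were tested and all 5 were lower in KO, with sums of 19.0 and 27.5 CPM in WT and of 3.73 and 3.91 CPM in KO; Hoxa11 was at 0 in every embryo and Hoxa10 and Col3a1 were at 0 in both KO embryos. The 6 blood and immune markers summed to between 2.89 and 4.92 CPM, with Hbb-bs at 0 in every embryo and Ptprc at 0 in both KO embryos.

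Most mitosis genes had somewhat lower values in KO embryos, and none passed the test. The log2 fold change, KO over WT, was negative for 33 of the 40 genes and positive for 7, with a median of -0.37. Over all genes tested it was negative for 52.3%, with a median of -0.03. Both KO embryos lay below both WT embryos for 17 of the 40 genes, against 18.8% of all genes tested, and above both for 1 gene (Kif4), against 19.4%. By edgeR's quasi-likelihood test 0 of the 40 genes had an adjusted p under 0.05, as did 0% of all genes tested, and the smallest adjusted p among them was 0.524. At an unadjusted p under 0.05 there were 3 lower genes, Cdc20, Ncapg and Plk1, against 3.08% of all genes tested, and 0 higher ones, against 4.74%. In all, 3 of 40 is close to the 7.82% of all genes at that level in either direction. DESeq2 called 0 of the 40 against 1.54% of all genes, and limma-voom 0 against 0%. At an unadjusted p under 0.05 each of these tools had 4 of the 40, against 8.9% of all genes by DESeq2 and 7.97% by limma-voom. Under the other alternatives too 0 of the 40 were called, where the share of all genes called was 1.02% with no low-count filter and 0.456% with the replicate block. It was 0.259% without WT replicate 1, 0.0877% without WT replicate 2, 2.04% without KO replicate 1 and 0.446% without KO replicate 2, and 0% with the rest.

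Summed over the 40 genes, the level was 7484 and 8120 CPM in the WT embryos and 6273 and 6280 CPM in the KO embryos. Their share of all counts was 0.788% and 0.755% in WT and 0.656% and 0.61% in KO. The groups did not overlap in either measure. In whole embryos, fewer dividing cells and less RNA per dividing cell cannot be told apart. The summed visceral endoderm, extraembryonic ectoderm, trophoblast and decidua markers given above differed between the same embryos. Single epiblast markers went in both directions. The part of all these markers in the mitosis values was not tested.

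Each KO embryo was also set against each WT embryo on the log2(CPM + 0.5) scale. The median difference of the 40 genes was -0.25 and -0.37 for KO replicate 1 against WT replicates 1 and 2. For KO replicate 2 it was -0.42 against each WT embryo. The medians of all genes tested in these 4 settings lay between -0.08 and 0.05. Between embryos of the same group the median of the 40 genes was 0.02 for WT replicate 2 minus replicate 1 and -0.04 for KO replicate 2 minus replicate 1. The lower median thus appeared in all 4 pairings, which reuse the same embryos and are not independent, and not between embryos of 1 label. In these pairings 27 to 36 of the 40 genes were lower in KO, against 47.1% to 54.5% of all genes tested. Between embryos of a label, 18 genes were lower in replicate 2 of WT and 21 in replicate 2 of KO. Single genes varied far more within a group than these medians do.

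**Figure D1:**
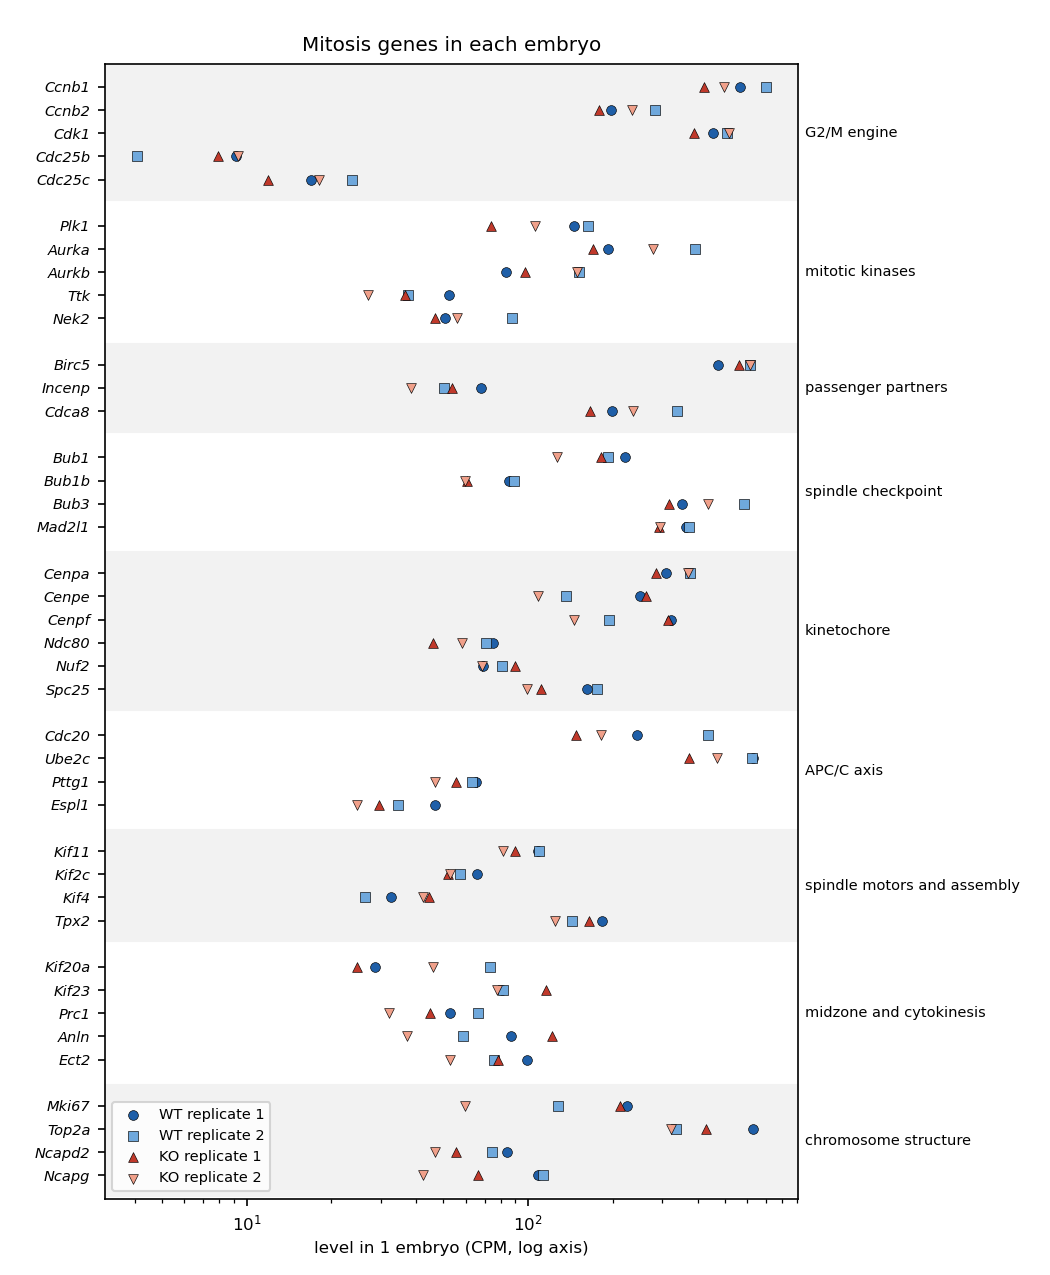
Level of each of the 40 mitosis genes in CPM (log axis) in the 4 embryos, with circles and squares for WT and triangles for KO, ordered by role. The lowest value is 4.06 CPM (Cdc25b) and the highest 702 CPM (Ccnb1), and for 17 genes both triangles lie to the left of both WT symbols.

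**Figure D2:**
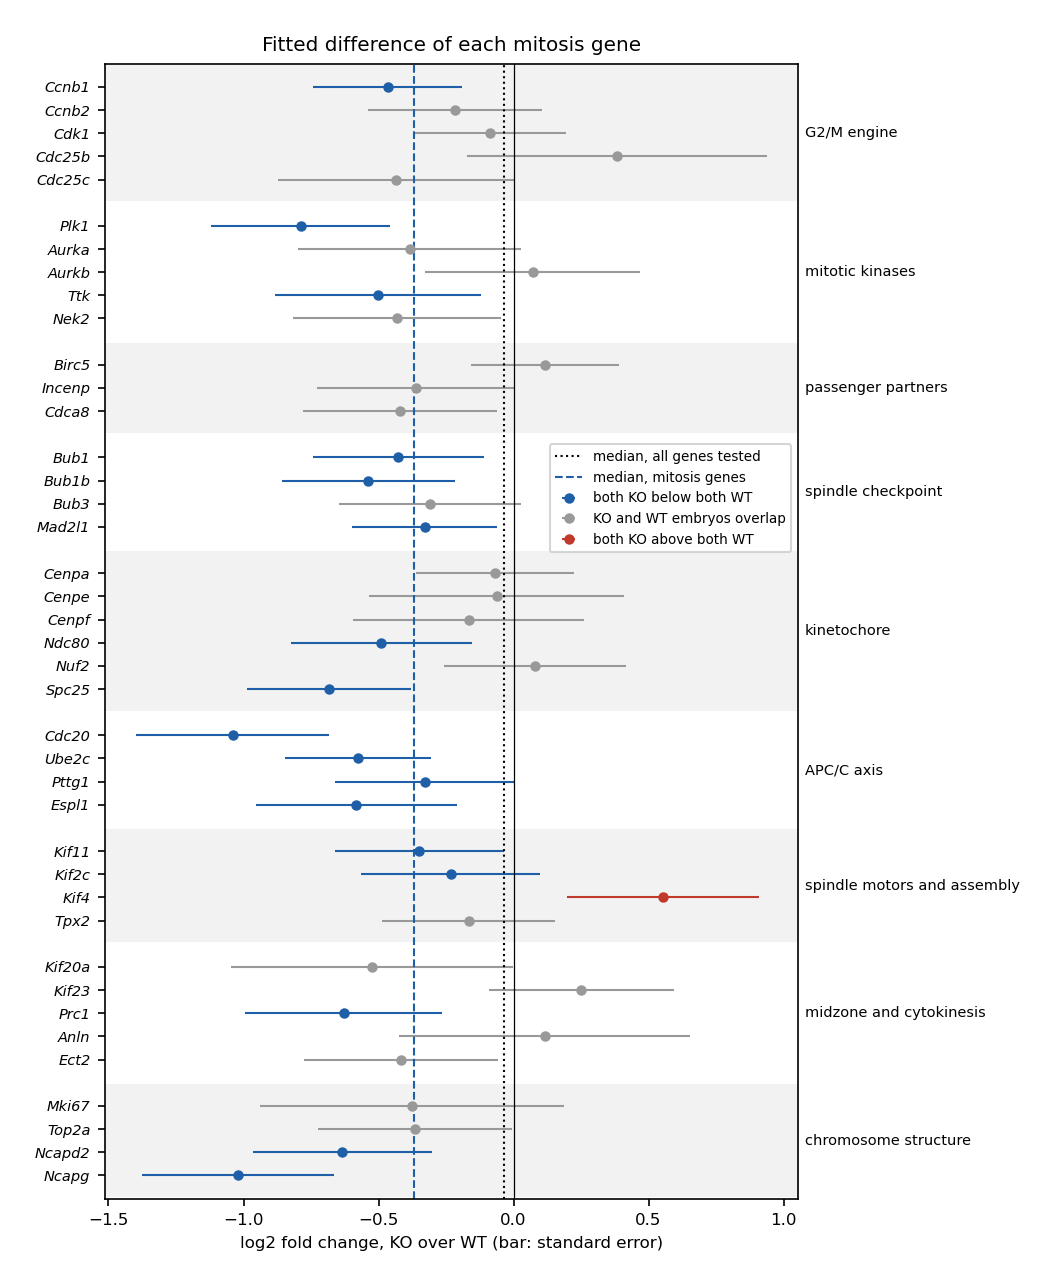
Fitted log2 fold change of each gene, KO over WT (n = 2 per group), with its standard error as a bar; the dotted line marks the median of all genes tested (-0.03) and the dashed line that of the mitosis genes (-0.37). The points run from -1.04 for Cdc20 to 0.55 for Kif4, the single gene with both KO embryos above both WT embryos.

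The genes with the smallest p among the 40, Cdc20, Ncapg, Plk1 and Spc25, are shown with the 200 bases before their RefSeq start (build GRCm38.p6, which is mm10), because promoters of genes of G2 and M often carry a shared arrangement of short elements. One is the cell cycle genes homology region, where the DREAM and MuvB-FOXM1 complexes bind, here searched as TTTGAA and, as a variant, as TTTAAA. The other is the CCAAT box, bound by NF-Y. Capitals mark these 6-letter strings and the letters CCAAT, which read ATTGG when on the other strand. Each line is read 5′ to 3′ along the gene.
Cdc20, chr4:118437344-118437543, minus strand: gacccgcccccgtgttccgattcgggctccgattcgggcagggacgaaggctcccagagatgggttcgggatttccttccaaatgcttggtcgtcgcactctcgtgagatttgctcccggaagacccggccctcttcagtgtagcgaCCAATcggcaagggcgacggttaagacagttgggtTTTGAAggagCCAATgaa
Ncapg, chr5:45669725-45669924, plus strand: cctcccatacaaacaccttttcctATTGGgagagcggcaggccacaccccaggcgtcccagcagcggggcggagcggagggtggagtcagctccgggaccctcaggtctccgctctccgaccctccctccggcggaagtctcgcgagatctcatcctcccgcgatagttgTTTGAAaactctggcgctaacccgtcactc
Plk1, chr7:122159235-122159434, plus strand: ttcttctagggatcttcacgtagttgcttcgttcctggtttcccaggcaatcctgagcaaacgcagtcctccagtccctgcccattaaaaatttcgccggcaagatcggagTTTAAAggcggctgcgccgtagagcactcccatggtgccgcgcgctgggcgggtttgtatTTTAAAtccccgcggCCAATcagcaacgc
Spc25, chr2:69206214-69206413, minus strand: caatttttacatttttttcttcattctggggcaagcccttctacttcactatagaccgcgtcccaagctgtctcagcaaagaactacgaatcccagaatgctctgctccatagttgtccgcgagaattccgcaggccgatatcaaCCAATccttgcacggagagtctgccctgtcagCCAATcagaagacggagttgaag

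In Cdc20 the string TTTGAA begins at position -18 and in Ncapg at -30, counted from the start at 0 (the first transcribed base). In Plk1 and Spc25 it lies past the start, at 30 and 24, outside the stretches shown. RefSeq windows of 250 bases before to 50 after the start were at hand for 35 of the 40 genes; those of Aurkb, Cdc25c, Incenp, Kif20a and Tpx2 were not used here. Both strands were searched, and TTTAAA is its own reverse complement. The string TTTGAA was found in 26 of the 35 genes (74.3%), against 20.2% of 27025 genes with a window. TTTAAA was found in 9 (25.7% against 14.9%) and CCAAT in 28 (80% against 41.1%). A CCAAT box together with either of the other strings stood in 25 genes (71.4% against 13.4%). Within 50 bases of the start, a window chosen after the data were seen, TTTGAA stood in 23 genes (65.7% against 5.72%). Among the other genes of mitosis listed further on, TTTGAA was found in 39.2% of 79 genes with a window.

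The median log2 fold change was -0.40 for the 26 mitosis genes with TTTGAA and -0.33 for the 9 without it. Over all 10864 tested genes with a window, the median was -0.05 for the 1541 with TTTGAA and 0.01 for the others. For the 406 with TTTGAA within 50 bases of the start it was -0.11, and -0.09 for the 383 of these that are not among the 40. These letter matches describe the windows and were not tested against the fold changes.

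The G2/M engine comprises the B cyclins, CDK1 and the CDC25 phosphatases that remove its inhibitory phosphates. Ccnb1, which encodes cyclin B1, had 564.5 and 702 CPM in WT and 421 and 496 CPM in KO. Both KO embryos were below both WT embryos, at a log2 fold change of -0.47 (SE 0.27, n = 2 per group; edgeR adjusted p = 0.768). Ccnb2, for the Golgi-associated cyclin B2, and Cdk1 differed by -0.22 (SE 0.32) and -0.09 (SE 0.28). Cdk1 itself had 453 and 509 CPM in WT and 388 and 517 CPM in KO, so that the KO embryos spanned the WT values. Cdc25c had 16.9 and 23.7 CPM in WT and 11.9 and 18.1 CPM in KO (-0.44, SE 0.44). Cdc25b had the lowest level of the 40 genes, at 9.20 and 4.06 CPM in WT and 7.93 and 9.33 CPM in KO (0.38, SE 0.55). The Cdc25 groups overlapped in both cases. Of all genes tested, 18.8% had both KO embryos below both WT embryos, as Ccnb1 had. Exons of Cdc25c overlap Gm3550 on the opposite strand over 623 bases, and those of Cdc25b overlap Spef1 over 92, and the libraries do not mark strand.

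Among the mitotic kinases, Plk1, the polo-like kinase of centrosome maturation, mitotic entry and cytokinesis, stood apart most. Plk1 (ENSMUSG00000030867, chromosome 7, 122159439 to 122169873 on mm10) had 145 and 164 CPM in WT and 73.6 and 105 CPM in KO. KO stood below WT by a fitted log2 value of -0.79 (SE 0.33, n = 2 per group; edgeR adjusted p = 0.624). Leaving out KO replicate 1 brought this to -0.47 and leaving out KO replicate 2 to -1.06. Ttk, the checkpoint kinase MPS1, had 52.4 and 37.5 CPM in WT and 36.5 and 26.95 CPM in KO (-0.50, SE 0.38). KO was lower in every pairing for Ttk too, but WT replicate 2 and KO replicate 1 were nearly equal. The same order was found in 18.8% of all genes tested. Nek2, a centrosome-separation kinase, had 50.5 and 87.6 CPM in WT and 46.7 and 55.65 CPM in KO (-0.43, SE 0.38). Aurka, the aurora kinase of spindle poles, had the highest level per length of these kinases. It had 191.5 and 390 CPM in WT and 169 and 277 CPM in KO (-0.38, SE 0.41), a gap between WT embryos wider than that between groups. Aurkb, the aurora kinase of the chromosomal passenger complex, differed by 0.07 (SE 0.40). Exons of Nek2 and Plk1 overlap the unnamed gene models Gm38037 and Gm44985 on the opposite strand.

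The passenger complex joins AURKB to survivin, borealin and INCENP and corrects faulty attachments. Birc5, encoding survivin, had 471 and 612 CPM in WT and 561 and 612 CPM in KO (0.12, SE 0.27). Per kilobase of transcript it was the highest of the 40 genes, at a mean of 596 CPM per kilobase. Cdca8, encoding borealin, had 199 and 338 CPM in WT and 166 and 235 CPM in KO (-0.42, SE 0.36). Incenp, the scaffold, had 68.0 and 50.2 CPM in WT and 53.5 and 38.5 CPM in KO (-0.36, SE 0.37). WT and KO overlapped for all 3 partners and for Aurkb. Of all genes tested, 18.8% had both KO embryos below both WT embryos and 19.4% above. Cdca8 exons overlap 9930104L06Rik on the opposite strand over 232 bases.

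All 4 genes of the spindle checkpoint had lower values in KO, as had 52.3% of all genes tested. Bub1b, for the checkpoint protein BUBR1, had 85.3 and 89.2 CPM in WT and 60.4 and 59.85 CPM in KO (-0.54, SE 0.32; edgeR adjusted p = 0.769). Mad2l1, for MAD2, which captures CDC20, had 364 and 373 CPM in WT and 292 and 294.5 CPM in KO (-0.33, SE 0.27). For both genes the embryos of a group lay close together. Bub1, the kinase that recruits the checkpoint to kinetochores, had 220.5 and 192 CPM in WT and 181 and 126 CPM in KO (-0.43, SE 0.32). Bub3, the partner of BUB1 and BUBR1, had 352 and 582 CPM in WT and 317 and 437 CPM in KO (-0.31, SE 0.34), with overlapping groups. Both KO embryos lay below both WT embryos for Bub1b, Mad2l1 and Bub1, 3 of the 4 genes, where 18.8% of all genes tested did so. None of the 4 passed the test (edgeR adjusted p from 0.769 to 0.907).

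Of the 6 kinetochore genes 5 had negative values and 1 a positive one, with a median of -0.12. Spc25, a subunit of the NDC80 complex that grips microtubules, had 162 and 175.5 CPM in WT and 111.5 and 98.9 CPM in KO (-0.68, SE 0.30; edgeR adjusted p = 0.648). The gene (ENSMUSG00000005233) lies on chromosome 2 from 69193895 to 69206194. Ndc80, another subunit of that complex, had 75.0 and 71.1 CPM in WT and 46.0 and 58.1 CPM in KO (-0.49, SE 0.34). Nuf2, the direct partner of NDC80, differed by 0.08 (SE 0.34), and the fourth subunit gene, Spc24, which is not among the 40, by -0.22 (SE 0.32). Both KO embryos lay below both WT embryos for Spc25 and Ndc80, as for 18.8% of all genes tested, and the groups overlapped for Nuf2 and Spc24. Cenpa, the histone H3 variant that marks the centromere, had 310 and 375 CPM in WT and 284 and 369 CPM in KO (-0.07, SE 0.29). Cenpf, a large protein of the outer kinetochore, had 322 and 194 CPM in WT and 315 and 146 CPM in KO (-0.17, SE 0.43). Cenpe, the kinetochore kinesin, differed by -0.06 (SE 0.47). For Cenpf and Cenpe replicate 1 of each group was high and replicate 2 low, and this contrast was far wider than that between genotypes.

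The genes around anaphase onset had the lowest median of the 9 roles, -0.58, and both KO embryos lay below both WT embryos in 4 of 4, where 18.8% of all genes tested did so. Cdc20, the activator that brings substrates to the APC/C, had 244 and 434 CPM in WT and 147 and 182 CPM in KO. Cdc20 (ENSMUSG00000006398) lies on chromosome 4 from 118432901 to 118437352. Its log2 fold change of -1.04 (SE 0.36, n = 2 per group; edgeR adjusted p = 0.524) was the most negative of the 40 genes. It rested in part on WT replicate 2, without which it was -0.56. Ube2c, the ubiquitin-conjugating enzyme that starts chains for the APC/C, had 631 and 624 CPM in WT and 372 and 469 CPM in KO (-0.58, SE 0.27). It was second in level per length by the mean of all 4 embryos, at 542 CPM per kilobase. Espl1, for separase, the protease that opens cohesin, had 46.7 and 34.5 CPM in WT and 29.5 and 24.7 CPM in KO (-0.58, SE 0.37). Pttg1, for securin, which holds separase inactive, differed by -0.33 (SE 0.33). Exons of Ube2c overlap Tnnc2 on the opposite strand over 592 bases and those of Cdc20 overlap Elovl1 over 53.

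Among spindle motors and assembly factors, Kif4 had the opposite direction. Kif4, a chromosome-bound kinesin on the X chromosome, had 32.7 and 26.3 CPM in WT and 44.4 and 42.2 CPM in KO (0.55, SE 0.36; edgeR adjusted p = 0.793). Both KO embryos were above both WT embryos, as for 19.4% of all genes tested. Its exons overlap Pdzd11 on the opposite strand over 832 bases. Kif11, the kinesin that pushes spindle poles apart, had 108.5 and 109 CPM in WT and 90.1 and 81.1 CPM in KO (-0.35, SE 0.31). Kif2c, a microtubule depolymerase, had 65.85 and 57.4 CPM in WT and 51.9 and 53.0 CPM in KO (-0.23, SE 0.33). Tpx2, the activator of AURKA on the spindle, had 182 and 143 CPM in WT and 165 and 125 CPM in KO (-0.17, SE 0.32). Both KO embryos lay below both WT embryos for Kif11 and Kif2c, as for 18.8% of all genes tested, and the groups overlapped for Tpx2.

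In the genes of the spindle midzone and of cytokinesis, 3 of 5 values were negative. Prc1, which bundles midzone microtubules, had 52.6 and 66.2 CPM in WT and 44.8 and 32.0 CPM in KO (-0.63, SE 0.36; edgeR adjusted p = 0.7645). Ect2, the exchange factor that activates RhoA at the cleavage furrow, had 98.7 and 75.8 CPM in WT and 78.1 and 52.6 CPM in KO (-0.42, SE 0.36). Only Prc1 of these 5 genes had groups that did not overlap, and 18.8% of all genes tested had both KO embryos below both WT embryos. Kif20a, a midzone kinesin, had 28.5 and 72.9 CPM in WT and 24.6 and 45.85 CPM in KO (-0.53, SE 0.52). Kif23, the kinesin of centralspindlin, had 80.9 and 81.3 CPM in WT and 115 and 77.8 CPM in KO (0.25, SE 0.34). Anln, the anillin scaffold of the contractile ring, ran from 37.1 CPM in KO replicate 2 to 121 CPM in KO replicate 1, with both WT embryos between. Exons of Kif20a overlap Cdc23 on the opposite strand over 1271 bases and those of Prc1 overlap Rccd1 over 911.

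All 4 genes of chromosome structure had lower values in KO, as had 52.3% of all genes tested. Ncapg (ENSMUSG00000015880, chromosome 5, 45669919 to 45700546), a subunit of condensin I, had 108 and 113 CPM in WT and 66.6 and 42.45 CPM in KO. The fitted log2 value was -1.02 (SE 0.36, n = 2 per group; edgeR adjusted p = 0.524). It was -0.72 without KO replicate 2 and -1.30 without KO replicate 1. Ncapd2, another condensin I subunit, had 84.1 and 74.6 CPM in WT and 55.5 and 46.7 CPM in KO (-0.63, SE 0.33). Both condensin genes had groups that were apart, with KO below WT, as had 18.8% of all genes tested. The remaining condensin subunits, which are not among the 40, overlapped between groups and had values from -0.60 for Ncapg2 of condensin II to -0.03 for Ncapd3. Top2a, the topoisomerase that untangles sister chromatids, had 630 and 336 CPM in WT and 429 and 321 CPM in KO (-0.36, SE 0.36). Mki67, the proliferation marker Ki-67 that coats mitotic chromosomes, had 224 and 128 CPM in WT and 212 and 59.8 CPM in KO (-0.37, SE 0.56). Exons of Ncapg overlap Lcorl on the opposite strand over 944 bases, and those of Top2a and Ncapd2 overlap the small RNA genes Gm23451 and Scarna10 on the same strand.

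Levels between genes were compared per kilobase of the principal annotated transcript. After Birc5 and Ube2c came Cenpa at 228, Ccnb1 at 219 and Bub3 at 190 CPM per kilobase. The lowest were Kif4 at 7.31, Espl1 at 5.08 and Cdc25b at 2.47 CPM per kilobase. Birc5 stood at the 98.9th percentile of all genes tested and Cdc25b at the 40.7th, and 38 of the 40 genes were above the 55th. Birc5 and Ube2c had overlapping values across embryos on this scale, and so had Cenpa and Ccnb1.

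Much of the variation among the 40 genes separated embryos of the same label, and it went with transcript length in many of them. From replicate 1 to replicate 2 of WT, the difference in log2(CPM + 0.5) was -0.73 for Cenpf, -0.81 for Mki67, -0.87 for Cenpe and -0.91 for Top2a. In KO the same differences were -1.11, -1.82, -1.27 and -0.42. These genes have long transcripts, from 5221 bases for Top2a to 11130 for Cenpf. Several shorter ones stood the other way, with 1.03 in WT and 0.71 in KO for Aurka and 0.76 and 0.50 for Cdca8. Other genes went against this pattern. Kif20a, at 3674 bases among the longer ones, had the highest values, 1.34 and 0.88. Mad2l1, at 7557 bases, stood at 0.03 and 0.01, and Ttk, at 2871 bases, at -0.48 and -0.43. Of the 20 longer genes, 12 were lower in replicate 2 of WT and 16 in replicate 2 of KO, and of the 20 shorter ones 6 and 5. Across the 40 genes, Spearman's rho of this difference with transcript length was -0.60 in WT and -0.59 in KO. Across the 15054 tested genes with an annotated length it was -0.18 in each group. Genes share a library, depth and amplification and are not independent replicates. The fitted KO over WT change had rho 0.14 with length across the 40 genes.

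Split at their median transcript length of 3158 bases, the 20 longer genes had a median log2 fold change of -0.36 and the 20 shorter ones of -0.40. With the trend in length removed from each library, an alternative chosen after the data were seen, the median of the 40 genes was -0.38 and 33 were negative. Whether RNA integrity, amplification or cell state sets the length pattern was not tested.

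**Figure D3:**
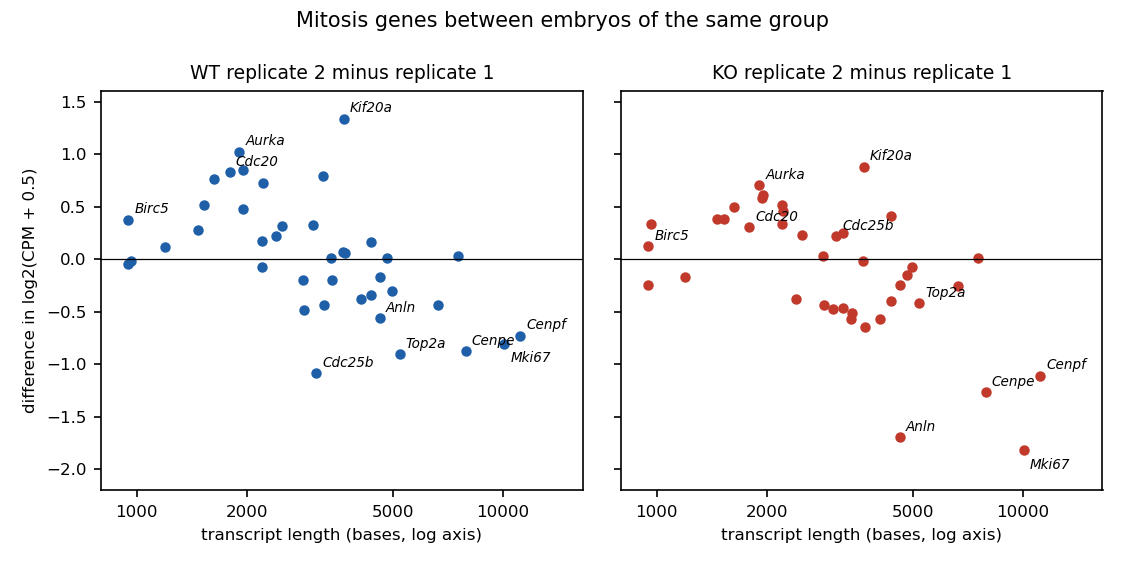
Difference in log2(CPM + 0.5) between the 2 embryos of a group against transcript length (log axis) for the 40 mitosis genes, WT on the left and KO on the right, 1 point per gene. Long transcripts such as Cenpf, Cenpe and Mki67 lie below 0 in both panels and Aurka and Kif20a above 0 (rho -0.60 and -0.59).

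On the first principal component of the 40 genes, with 52.5% of their variance, replicate 1 embryos lay at -1.57 (WT) and -1.85 (KO) and replicate 2 embryos at 1.59 and 1.84. The second, with 40.2%, held the WT embryos at -1.08 and -1.84 and the KO embryos at 1.12 and 1.79. The component that separated embryos of a label thus held more of the variance than the one that separated the labels.

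Another 95 genes of mitosis outside the 40 were looked up, and all were tested. None passed by edgeR (smallest adjusted p = 0.527). The log2 fold change was negative for 67 and positive for 28, with a median of -0.18, nearer to that of all genes than the -0.37 of the 40. At an unadjusted p under 0.05, 2 were lower and 3 higher, against 3.08% and 4.74% of all genes tested. DESeq2 and limma-voom also called 0 of the 95 and had 5 each at that level, against the 8.9% and 7.97% of all genes given above. Both KO embryos lay below both WT embryos for 13 genes and above for 12, out of 95, against the 18.8% and 19.4% of all genes given above. All 6 condensin and all 5 checkpoint genes of this list had negative values, with 0 of either class at an unadjusted p under 0.05 by edgeR. Negative values were also found in 19 of 25 kinetochore and centromere, 3 of 4 cytokinesis and 11 of 17 spindle genes. The same held for 7 of 11 G2/M regulators, 9 of 15 APC/C and 7 of 12 cohesin genes, against 52.3% of all genes tested. Across the APC/C the median was -0.07 over 15 genes, and in the G2/M regulators -0.01 over 11.

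Among the 10 of these genes with the smallest p, Kif22, a chromosome-arm kinesin, had 124 and 141 CPM in WT and 65.8 and 75.9 CPM in KO (-0.90, SE 0.32). Ska1, a kinetochore protein that tracks microtubule ends, differed by -0.76 (SE 0.32), and Hjurp, the chaperone that deposits CENPA, by -0.67 (SE 0.33). Smc3, a cohesin ring subunit, and Cenpp, of the inner kinetochore, differed by -0.53 and -0.59.

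Other genes had higher values in KO. Cdca5, for sororin, which protects cohesin until anaphase, had 85.0 and 133 CPM in WT and 161 and 297.5 CPM in KO (1.07, SE 0.40; edgeR adjusted p = 0.555). Fbxo5, for EMI1, an inhibitor of the APC/C, had 182 and 232 CPM in WT and 319 and 321 CPM in KO (0.63, SE 0.29). Cdc26, a small APC/C subunit, had 122 and 129 CPM in WT and 180 and 242 CPM in KO (0.75, SE 0.31), and Cenpl, of the inner kinetochore, and Ckap2l, a spindle protein, differed by 0.83 and 0.51. All 10 genes were picked by their p, so whether their groups overlap says nothing further. Among regulators of the G2/M program, Foxm1 and Mybl2, whose products bind with MuvB, differed by 0.48 (SE 0.40) and 0.16 (SE 0.34), and Ccna2, for cyclin A2, by -0.54 (SE 0.35). Both KO embryos lay above both WT embryos for Foxm1, as for 19.4% of all genes tested, and the groups overlapped for Mybl2 and Ccna2.

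**Figure D4:**
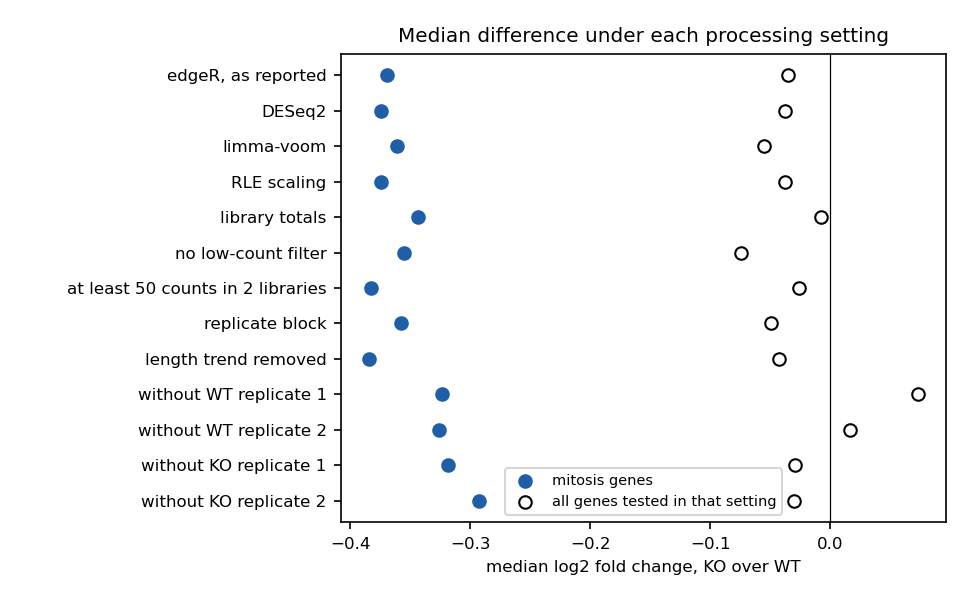
Median log2 fold change, KO over WT, of the 40 mitosis genes (filled) and of all genes tested (open) under the reported fit and 12 alternatives. The filled points lie between -0.38 and -0.29 and the open ones between -0.07 and 0.07.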

How the data were processed

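The authors deposited whole-number read counts per gene for 4 libraries, with no normalisation. Per the submitters' processing notes, reads were handled with TopHat and Cufflinks on mm10, with no versions or roles stated. Which program counted reads, over which annotation and with which strand setting, is likewise not given in the sources used here. Of 47885 rows, 46574 matched GENCODE M21 (mm10), which gave symbols, positions and the length of the longest principal transcript.

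KO was compared with WT on all rows with edgeR 4.0.16 (R 4.3.3): filterByExpr (minimum count 10, minimum total 15), TMM scaling and the quasi-likelihood test with robust estimation, adjusted by Benjamini and Hochberg over 15563 genes at a threshold of 0.05. Standard errors restate the F test. Alternatives used DESeq2 1.42.0, limma 3.58.1, other scalings and filters, a replicate block and 1 library left out. The fit was also run on simulated counts, with planted changes larger than that of any mitosis gene. That run therefore says nothing on whether changes of the size given here could be detected. A single count equals 0.0359 to 0.0590 CPM, which bounds counting error only. P-values set the difference between groups against the spread between embryos of a group, which edgeR estimates with information shared across genes.

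The 40 genes, their roles and the lists were chosen with earlier results of these data known. Values per embryo are given, in each role, for the 3 genes with the smallest p and the one with the highest level per length, and, chosen after their values were seen, for Cdk1, Mki67 and Anln. Of the 95 other genes the 10 with the smallest p are named, and also, chosen afterwards, Spc24, Ncapg2, Ncapd3, Foxm1, Mybl2 and Ccna2. Promoter windows are from RefSeq (GRCm38.p6). Proteins were not used here.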

Additional observations from a re-analysis of the deposited data

How the results depend on the processing

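No mitosis gene passed under the reported fit or any alternative that kept all 4 libraries. The smallest adjusted p among these was 0.0963 by edgeR, for Cdc20 with the replicate block. Under all 12 alternatives the median of the 40 genes kept its sign, between -0.38 and -0.29. In these fits 27 to 34 genes were negative, the fewest without WT replicate 2. Over all genes, where edgeR called 0, DESeq2 called 150 higher and 90 lower, and 157 and 101 passed with no low-count filter. With 1 library left out, 14 to 133 genes were higher and 1 to 209 lower. With the replicate block 52 genes were higher and 19 lower over all genes, and this fit put 8 of the 40 genes at an unadjusted p under 0.05, against 14.2% of all genes. Across genes the difference between WT embryos correlated at 0.355 with that between KO embryos. No label ties a number to a litter or a day, and whether the numbers pair the embryos is unknown.

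Of 480 single-gene values under the alternatives, 449 kept their direction and 31, in 18 genes, did not; the cause was not tested. Anln was at -0.12 with limma-voom and -0.0931 with the replicate block. All other reversals came from leaving out 1 library, with ranges of -0.43 to 0.0748 for Ccnb2, -0.30 to 0.19 for Cdk1, -0.0821 to 1.11 for Cdc25b, -0.78 to 0.23 for Aurka, -0.26 to 0.57 for Aurkb, -0.75 to 0.0277 for Nek2, -0.0424 to 0.33 for Birc5, -0.73 to 0.0193 for Cdca8, -0.60 to 0.11 for Bub3, -0.26 to 0.19 for Cenpa, -0.75 to 0.45 for Cenpe, -0.74 to 0.30 for Cenpf, -0.0455 to 0.27 for Nuf2, -0.32 to 0.0304 for Tpx2, -1.04 to 0.31 for Kif20a, -0.89 to 0.74 for Anln, -1.48 to 0.28 for Mki67 and -0.74 to 0.17 for Top2a.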
